A study of Rattus norvegicus with 8 samples.

Results

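The genes described here encode the machinery that fuses secretory vesicles with the plasma membrane, with Nsf, the gene of the N-ethylmaleimide sensitive factor, at its head. The set held 9 genes: Nsf, Napa, Snap25, Stx1a, Vamp2, Syt1, Syt4, Rab3a and Cplx1. It took in every probe set whose single gene symbol in the platform's annotation was one of them, which gave 14 of 15866 probe sets and 8 of the 9 genes, out of 10411 genes named on the array. Syt1 had no probe set named for it and is not analysed here. The genes were chosen by role, around Nsf, with their measured hypoxic against normoxic differences already known, so their own differences in that comparison are given as a description, with errors and no p-value. How many of them passed the threshold of the array-wide fit is counted once, for completeness, and supports nothing.

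Membrane fusion is carried out by SNARE proteins. Vamp2 encodes the SNARE on the vesicle, and Snap25 and Stx1a encode its partners on the plasma membrane. These proteins coil into a tight bundle that pulls the membranes together. NSF, an ATPase, uses the alpha-SNAP protein encoded by Napa as an adaptor to take the spent bundle apart, so that the SNAREs can be used again. Synaptotagmins such as those of Syt1 and Syt4 bind to membranes and SNAREs, Syt1 as a calcium sensor, complexin 1 (Cplx1) holds and readies the assembled SNAREs, and the small GTPase Rab3a acts on vesicles before they fuse. Chromaffin cells of the adrenal medulla release catecholamines through this machinery, while NSF and alpha-SNAP serve membrane traffic in every cell type.

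The adrenal glands came from rat pups (Rattus norvegicus) on postnatal day 7. The hypoxic pups had lived with their dams in 12% O2 since birth. The normoxic pups had lived in room air with dams that ate freely. In both groups the capsule had been removed, and each of the 4 pools per group joined 24 glands, so a value is a mean over many animals and hides how they differ. Strain, sex and the spread of litters over pools are not given in the sources used here, and the p-values below measure only the spread between these pools. The array medians of intensity lay between 228.55 and 249.2 arbitrary units, and the 95th percentile of control probe sets for bacterial genes, used here as background, was 46.7. The markers of the labelled tissue were present: all 13 measured chromaffin genes and all 8 measured genes of the steroid-producing cortex lay above that percentile in every pool. With 4 arrays per group the precision of each value is limited.

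The promoters of Nsf and Napa are shown because these partner genes had the largest differences between groups among the tested members, read from the brightest probe set of each gene. They are RefSeq sequences of rat assembly GRCr8 from 250 bases before to 50 bases after the annotated start, 5′ to 3′ on the gene's strand. Nsf lies on the minus strand at chr10:89357334-89357633 and Napa on the plus strand at chr1:85915185-85915484. Capitals mark ACGTG, the core letters of a hypoxia response element, and TGACG, the core letters of a cAMP response element, each on either strand; overlapping matches run together.
Nsf: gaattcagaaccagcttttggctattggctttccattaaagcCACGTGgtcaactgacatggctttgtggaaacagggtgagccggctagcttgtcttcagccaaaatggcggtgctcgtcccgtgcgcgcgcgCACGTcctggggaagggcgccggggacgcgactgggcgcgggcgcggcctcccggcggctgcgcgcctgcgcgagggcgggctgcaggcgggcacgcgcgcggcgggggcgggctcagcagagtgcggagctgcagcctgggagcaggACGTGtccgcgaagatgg
Napa: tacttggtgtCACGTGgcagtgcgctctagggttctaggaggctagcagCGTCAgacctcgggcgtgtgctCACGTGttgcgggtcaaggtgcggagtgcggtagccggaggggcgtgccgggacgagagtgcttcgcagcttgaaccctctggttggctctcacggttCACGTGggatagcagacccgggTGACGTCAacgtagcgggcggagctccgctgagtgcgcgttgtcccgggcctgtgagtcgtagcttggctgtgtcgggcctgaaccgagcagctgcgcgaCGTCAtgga
In the Nsf window ACGTG lies at 3 places, which start at positions -208, -116 and 32 from the annotated start, and the first of them is the palindrome CACGTG, which is read on both strands. The Napa window holds CACGTG 3 times, at -240, -179 and -81, and the full element TGACGTCA once, at -59. Of 27457 rat promoter windows of the same length, 19.7% held ACGTG, 6.65% held CACGTG, 22% held TGACG and 1.91% held TGACGTCA, counting both strands. Among the 8 members with a window in the table, 5 held ACGTG, 2 held CACGTG and 5 held TGACG. The windows of Nsf and Napa had a GC content of 68.7% and 64.7%, against a median of 52.3% over all windows, and a match of letters is a description of the sequence only.

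Nsf was higher in the hypoxic pools on each of its 3 probe sets. On 1372528_at, the brightest, normoxic pools 1 to 4 measured 1247, 1503, 1322.7 and 1100.9 and hypoxic pools 1 to 4 measured 1881.7, 2162.6, 1725.2 and 2190.3. Every hypoxic pool lay above every normoxic pool. The means were 1293 ± 167 and 1989.95 ± 225 (SD, n = 4 pools each), which is a difference of 0.62 in log2(intensity + 16) with a standard error of 0.12 and a 95% interval from 0.36 to 0.87. All differences below are on this scale, which understates changes of dim probe sets.

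On 1369690_at the Nsf values were 801.6, 779.1, 1102 and 881 in normoxic pools 1 to 4 and 1159.6, 1713, 1790.0 and 2213.5 in hypoxic pools 1 to 4. The groups did not overlap here either, though hypoxic pool 1 lay close to normoxic pool 3. The means of 891 ± 147 and 1719 ± 433 (SD, n = 4 pools each) stood 1.93-fold apart, a log2 difference of 0.91 (standard error 0.18, interval 0.53 to 1.30). On 1369689_at the values were 417.9, 511, 815.7 and 603.5 in normoxic and 609.9, 984.4, 830.0 and 1070.1 in hypoxic pools. There the groups overlapped, since hypoxic pool 1 fell below normoxic pool 3, and the other 3 hypoxic pools lay above every normoxic one. The log2 difference was 0.57 (standard error 0.21, interval 0.12 to 1.02). The annotation traces 1369690_at and 1369689_at to 1 source record, so these are not independent readings of the gene. In both of them normoxic pool 3 was the highest of its group, and hypoxic pool 4 was the highest pool on all 3 Nsf probe sets.

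**Figure D1:**
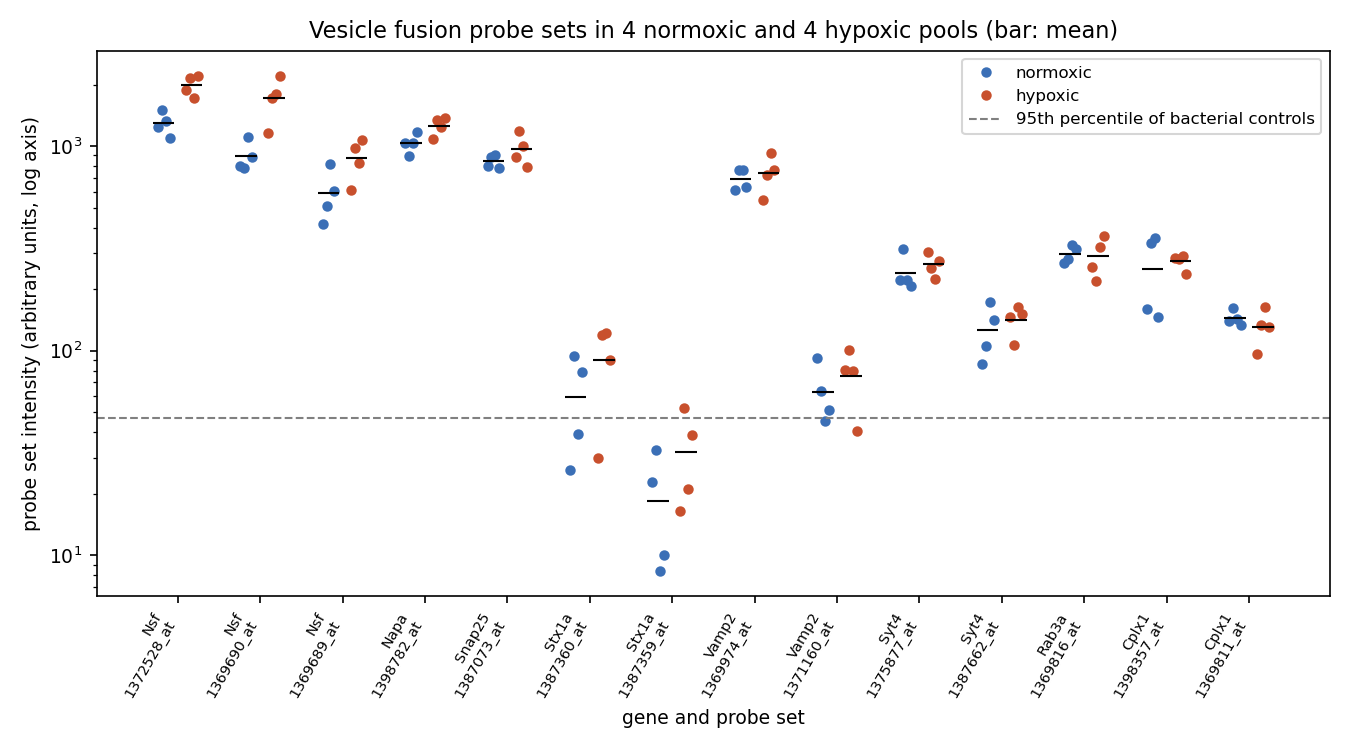
Intensity in arbitrary units on a log axis for the 14 probe sets of the set, 1 point per pool, with the mean of each group as a bar and the 95th percentile of the bacterial controls (46.7) as a dashed line. The hypoxic and normoxic points are apart on 2 of the 3 Nsf probe sets and overlap on the other probe sets, and the Stx1a probe sets scatter around the dashed line.

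Napa, which encodes the adaptor that brings NSF to the SNARE bundle, had 1 probe set. It measured 1035, 899, 1033.8 and 1173.4 in normoxic and 1085.6, 1340.0, 1240.6 and 1370.8 in hypoxic pools. The groups overlapped by hypoxic pool 1, and the other hypoxic pools lay above every normoxic one. The means were 1035 ± 112 and 1259 ± 128 (SD, n = 4 pools each). Their log2 difference was 0.28, with a standard error of 0.11 and an interval from 0.04 to 0.52.

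The SNAREs themselves overlapped between groups on all their probe sets. Snap25 measured 796.4, 887.7, 900.9 and 781.2 in normoxic and 884.7, 1188, 1003.1 and 787.7 in hypoxic pools, a log2 difference of 0.18 (interval -0.09 to 0.46). Hypoxic pools 2 and 3 lay above the normoxic range, while hypoxic pool 4, the highest for Nsf, lay inside it. Vamp2, the vesicle SNARE, measured 607.1, 762, 761.9 and 633.8 in normoxic and 542.3, 725.3, 920.5 and 764.3 in hypoxic pools on its brighter probe set. The log2 difference was 0.08 (interval -0.25 to 0.41), and it was -0.04 without hypoxic pool 3. The other Vamp2 probe set ranged from 45.6 to 91.7 in normoxic and from 40.4 to 101 in hypoxic pools. Stx1a was the dimmest member: its probe sets ranged from 26.1 to 94.7 and from 8.4 to 32.6 in normoxic pools, and from 29.9 to 121.8 and from 16.5 to 52.4 in hypoxic pools. Only 5 and 1 of the 8 pools lay above the 95th percentile of the bacterial controls on these, so the array barely measured the gene. These Stx1a and Vamp2 probe sets, 3 in all, lay under the brightness limit (a signal of 95.2) and were not among the 11106 probe sets tested.

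The regulators of fusion also overlapped between groups. Syt4, a synaptotagmin of dense core vesicles, measured 221.9, 312.8, 220.5 and 208.1 in normoxic and 304.3, 254.6, 223.9 and 273.7 in hypoxic pools on its brighter probe set. Normoxic pool 2 was the highest of all 8 pools, and the log2 difference was 0.13 (interval -0.20 to 0.47). On its dimmer probe set the values ran from 86.3 to 173 and from 107 to 163.3, a log2 difference of 0.18 (interval -0.28 to 0.63). Rab3a measured 269.3, 281.5, 327.7 and 314.9 in normoxic and 256.1, 219.4, 322.3 and 363.9 in hypoxic pools. Its lowest and its highest pool were both hypoxic, and the log2 difference of -0.06 (interval -0.40 to 0.29) turned to 0.06 without hypoxic pool 2.

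Cplx1 gave opposite signs on its probe sets. The brighter one measured 160.2, 335.5, 356.4 and 146.7 in normoxic and 285.5, 280.6, 290.1 and 236.9 in hypoxic pools, a log2 difference of 0.22 (interval -0.33 to 0.77). The normoxic pools formed a low pair, pools 1 and 4, and a high pair, pools 2 and 3, with every hypoxic pool between them. The log2 difference came to 0.02 without normoxic pool 4 and to 0.42 without normoxic pool 3. The dimmer probe set measured 140.2, 161.1, 143.6 and 133 in normoxic and 96.5, 133.5, 163 and 129.9 in hypoxic pools, a log2 difference of -0.15 (interval -0.51 to 0.22).

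Across the set, 9 of the 11 tested probe sets were higher in the hypoxic mean, where 45.2% of all tested probe sets were. The groups did not overlap on 2 of the 11, both of them Nsf, where 2.76% of all tested probe sets were higher without overlap. With limma adjusted over all tested probe sets, 0 of the 11 passed 0.05, against 0.18% of all tested probe sets. The count was 1, for Nsf 1369690_at, when hypoxic pool 1, the lowest hypoxic pool on that probe set, was left out (log2 1.09). The calls over all probe sets then rose from 20 to 31. Since the genes were gathered with this comparison in view, these counts say nothing about the set beyond its own values. Read from the brightest tested probe set, the 7 genes had a median log2 difference of 0.18 and a range from -0.06 to 0.62, beside a median of -0.02 over all tested probe sets.

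**Figure D2:**
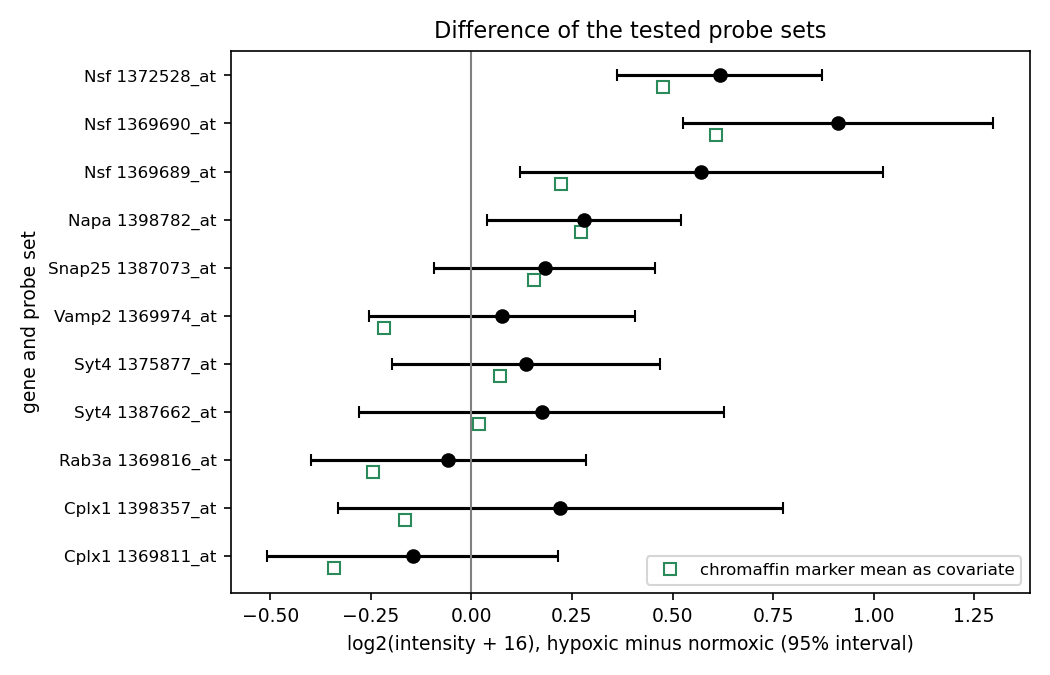
Difference in log2(intensity + 16), hypoxic minus normoxic, for the 11 tested probe sets, with 95% intervals from the fit on 4 pools per group (black points), and the same difference with the mean of the chromaffin markers as a covariate (open squares). The Nsf points run from 0.57 to 0.91 and their squares from 0.22 to 0.61, and all other intervals except that of Napa span 0.

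Chromaffin marker signal differed between pools. The mean log2 value of the 13 measured chromaffin genes ran from 10.71 to 11.07 in normoxic and from 10.92 to 11.31 in hypoxic pools, 0.24 higher in the hypoxic mean. Their summed intensity ran from 39518.8 to 51717 and from 45250 to 61530.2. Each of the 13 was higher in the hypoxic mean at its brightest probe set (median log2 difference 0.14), and none was near the bacterial controls there. A dimmer Ddc probe set differed by -0.06. Slc18a2, the vesicular monoamine transporter, passed the test at its brightest probe set, while its other one differed by 0.61 with overlap (limma adjusted p = 0.399). In a pooled gland, more cells of a type and more RNA per cell cannot be told apart.

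The same pools were lowest for the members and for the markers. Normoxic pools 1 and 4 lay 0.25 and 0.24 log2 units below the mean of all 8 pools over the 7 tested genes, and 0.30 and 0.24 below it for the chromaffin markers. Hypoxic pool 4 lay 0.14 above the mean for the members and 0.30 above it for the markers. Normoxic pool 4 was the lowest of the 8 pools for 4 of the 7 genes, and hypoxic pool 4 the highest for 3. With Nsf left out, normoxic pools 1 and 4 still lay 0.23 and 0.19 below the mean over the other genes. Of the normoxic pools, pools 1 and 4 also had the most signal of fat genes. Ucp1 measured 1675, 388.8, 381.2 and 1820 in normoxic pools 1 to 4, and Cidea 2202, 585.8, 461.7 and 1707. The part of fat tissue in the low values of these pools was not tested.

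Set beside the chromaffin markers, the Nsf differences were smaller and of the same sign on each probe set. These values are a description, and the part of chromaffin content in the Nsf difference was not tested. Taken relative to the mean of those markers in the same pool, Nsf was higher in hypoxic pools by 0.37, 0.67 and 0.33 log2 units on 1372528_at, 1369690_at and 1369689_at, and the groups stayed apart on 1369690_at alone. With that mean as a covariate the differences were 0.48 (standard error 0.14), 0.61 (0.18) and 0.22 (0.22). Napa relative to the markers differed by 0.04, and with the covariate by 0.27 (0.15). Relative to the markers Snap25 differed by -0.06, Vamp2 by -0.17 and Rab3a by -0.30. The brighter Cplx1 probe set differed by -0.02 and the dimmer one by -0.39, the latter with no overlap between groups. The marker mean was itself 0.24 higher in hypoxic pools, so an unchanged probe set reads lower by that much on this scale. The share of all probe sets without overlap on it was not counted. With the covariate Vamp2 turned to -0.22 and the brighter Cplx1 probe set to -0.17.

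**Figure D3:**
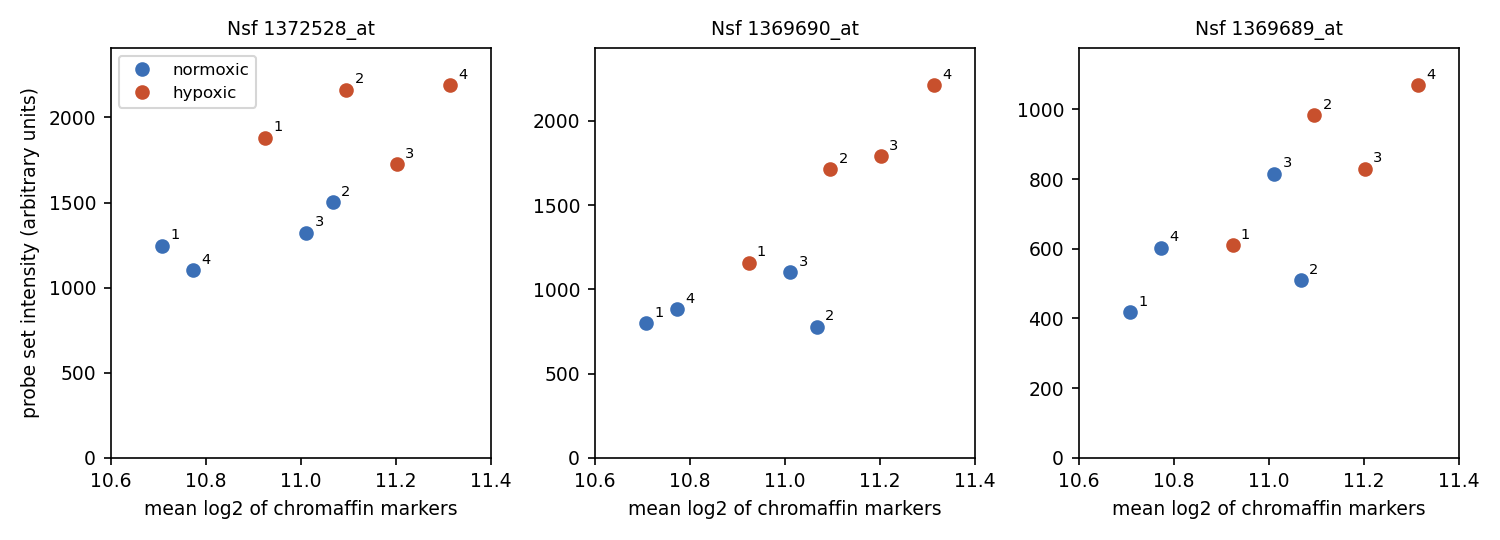
Intensity of each Nsf probe set (vertical axis, arbitrary units) against the mean log2 value of the 13 chromaffin markers (horizontal axis) in each pool, numbered by replicate within its group. Hypoxic pool 4, with the highest marker mean (11.31), has the highest Nsf value in every panel, and on 1372528_at hypoxic pool 1 (1881.7) lies above normoxic pools 2 and 3 (1503 and 1322.7), whose marker means were higher, while on 1369689_at it (609.9) lies below normoxic pool 3 (815.7).

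Neuronal markers, many of which chromaffin cells express too, were also higher in the hypoxic pools. Of 11 measured genes 9 had a higher hypoxic mean (median log2 difference 0.34), 1 passed the test (Nefh, the heavy neurofilament chain), and the summed intensity ran from 4445.9 to 5951.6 in normoxic and from 5676.3 to 6465.8 in hypoxic pools. Their part in the Nsf difference was not tested. The 8 cortex genes had a median of 0.02, and their summed intensity ran from 89738.8 to 122992 in normoxic and from 89169.6 to 131671 in hypoxic pools. The 7 tested Schwann and glial genes had a median of 0.06. The 6 tested fat genes all had a lower hypoxic mean, with a median of -0.40, but the groups overlapped on each and 0 passed. Their summed intensity ran from 3871 to 12164.2 in normoxic and from 2862.6 to 8619.2 in hypoxic pools. The 5′ over 3′ ratio of the Gapdh control probe sets, a sign of RNA integrity, ran from 0.587 to 0.731 in normoxic and from 0.556 to 0.659 in hypoxic pools, and with it as a covariate the Nsf differences were 0.60, 1.05 and 0.78. The beta-actin ratio ran from 0.413 to 0.744 in normoxic and from 0.249 to 0.713 in hypoxic pools. Hypoxic pool 1 had the lowest actin ratio, and the part of that ratio in the Nsf difference was not tested.

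The wider machinery was read from lists of 133 further genes of fusion and exocytosis, of which 111 had a probe set and 85 were bright enough to test. At the brightest probe set, 41 were higher and 44 lower in hypoxic pools. The median log2 difference was -0.01, beside -0.02 over all tested probe sets. In limma adjusted over all tested probe sets, 0 of the 85 passed, at their brightest or any other probe set, where 0.18% of all tested probe sets did. An unadjusted p under 0.05 was found for 4 higher and 2 lower genes, where 8.64% of all tested probe sets had one.

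Among the other SNAP gene, the relatives of NSF and associated genes, 3 of 5 tested genes were higher and 0 passed. Vps4a, an ATPase of the same AAA family that takes apart the ESCRT complexes of endosomes, measured 621, 701.9, 943.5 and 824 in normoxic and 972.8, 1093, 1009 and 966.1 in hypoxic pools. Its groups did not overlap, and the log2 difference was 0.40 (limma adjusted p = 0.36). Its close relative Vps4b differed by -0.08 (adjusted p = 0.854) and Napg, the gamma-SNAP gene, by -0.17 (adjusted p = 0.774).

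Most of the other SNARE genes had a lower mean in hypoxic pools, as did 6090 of all 11106 tested probe sets, and 0 of these SNARE genes passed the test. Of the 5 other vesicle SNARE genes 5 were lower under every scaling tried, with a median log2 difference of -0.15. Vamp1, a neuronal relative of Vamp2, measured 1097 ± 173 in normoxic and 832 ± 106 in hypoxic pools (SD, n = 4 each), a log2 difference of -0.39 (limma adjusted p = 0.399), and its other probe sets differed by -0.28 and -0.18. Vamp5 differed by -0.21 and Vamp8 by -0.15, with adjusted p of 0.688 and 0.85. The 4 other plasma membrane SNARE genes, 3 of them lower and 1 with arrays centred on their medians, kept within -0.05 and 0.06, the limits being Stx4 and Snap29, and Snap23, the widely expressed relative of Snap25, differed by -0.03 (adjusted p = 0.971), or 0.01 with arrays centred on their medians. Of 15 SNAREs of the Golgi, endoplasmic reticulum and endosomes 11 were lower, with a median of -0.07, and 9 with arrays centred on their medians. Among them Ykt6 differed by -0.37, Stx6 by -0.20 (and by -0.67 on a dimmer probe set, adjusted p = 0.524) and Bnip1 by -0.20, with adjusted p of 0.587, 0.634 and 0.668.

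The proteins that guide and prime fusion gave single genes on either side. Of 13 priming and tethering genes 9 were higher (10 with quantile normalization or arrays centred on their medians), with a median of 0.03. Bsn, which encodes the active zone scaffold Bassoon, measured 198.9, 183.8, 173.6 and 113.6 in normoxic and 289.9, 217.4, 279.1 and 259.2 in hypoxic pools. The groups did not overlap, and the log2 difference was 0.61 (limma adjusted p = 0.271), but a dimmer probe set under the brightness limit differed by -0.10. Erc1, another scaffold protein of that zone, differed by 0.44 (adjusted p = 0.43) and Cadps2, which primes dense core vesicles, by 0.19 (adjusted p = 0.734). Of 9 SM proteins and syntaxin binders 6 were lower (4 with arrays centred on their medians), with a median of -0.02. In that list Stxbp5, whose protein tomosyn ties up syntaxin, differed by -0.30, Vps33a by -0.28 (0.00 on its other tested probe set) and Stxbp3 by 0.09, with adjusted p of 0.666, 0.628 and 0.854.

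Synaptotagmins and associated genes, Rab proteins and vesicle membrane proteins were likewise split. Of 11 other synaptotagmin, C2 domain and associated genes 5 were higher and 6 lower. With quantile normalization or arrays centred on their medians, 6 were higher and 5 lower. Among them were Syt5 at 0.40, Rph3al at 0.26 and Sytl2 at -0.30, with limma adjusted p of 0.607, 0.648 and 0.634. Of 14 Rab genes and regulators 10 were higher (9 with quantile normalization, 11 with arrays centred on their medians), with a median of 0.06. Rab3b, a close relative of Rab3a, differed by 0.16, Rab3gap2 by -0.17 and Rab8b by -0.32, with adjusted p of 0.736, 0.675 and 0.662. Of 9 other complexin and vesicle membrane genes 6 were higher (5 with quantile normalization). Syngr3, a synaptogyrin of vesicle membranes, measured 80.1, 106.9, 96.7 and 86.1 in normoxic and 139.8, 150.2, 145.4 and 140.2 in hypoxic pools. This was a log2 difference of 0.57 with no overlap (adjusted p = 0.234). Its normoxic mean of 92.45 lay under the brightness limit of 95.2, so Syngr3 was tested only because of its hypoxic values. Sv2b, a glycoprotein of vesicles, had the opposite sign, at 1481, 1795, 1653 and 1529 in normoxic and 1410.0, 1211, 1418 and 1058 in hypoxic pools, a log2 difference of -0.34 with no overlap (adjusted p = 0.395). The vesicle marker Syp differed by 0.15 (adjusted p = 0.814), and by -0.02 with the chromaffin mean as a covariate. Of the 85 genes, 3 were higher, Syngr3 among them, and 1 lower without overlap, where 2.76% and 2.64% of all tested probe sets were.

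**Figure D4:**
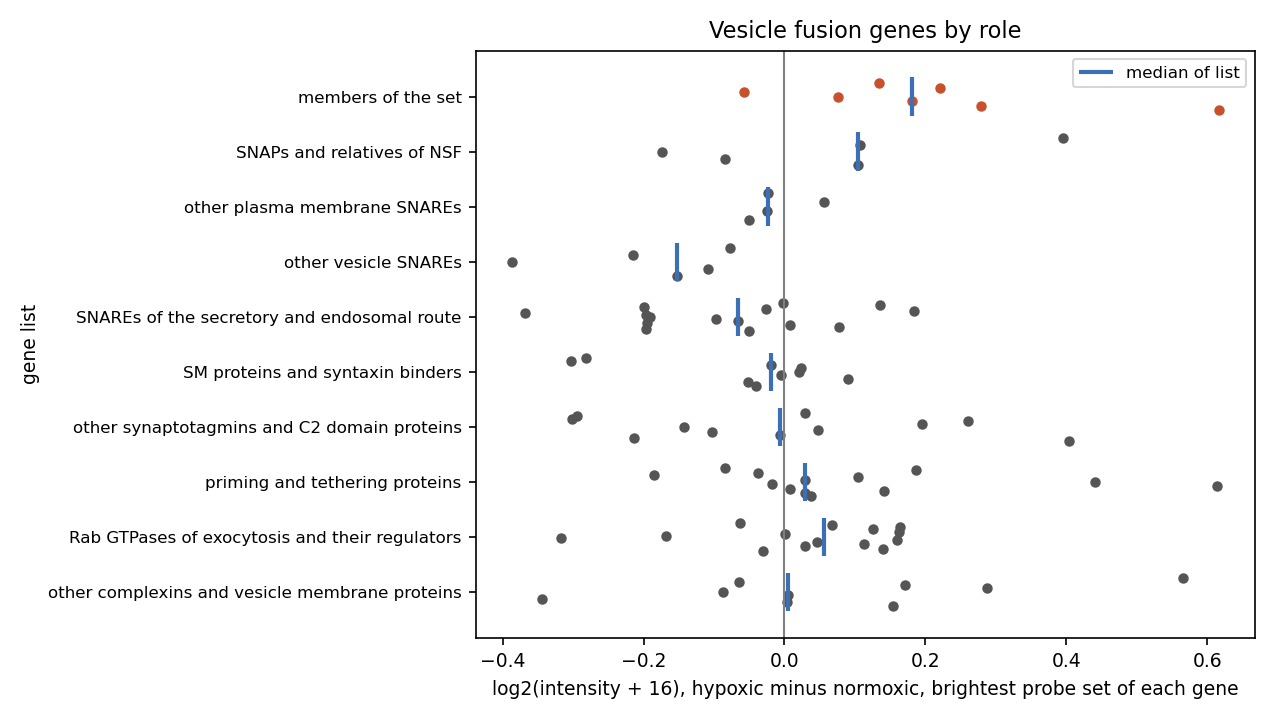
Difference in log2(intensity + 16), hypoxic minus normoxic, at the brightest tested probe set of each gene (points), for the members (orange) and for the wider genes by role (grey), with the median of each list as a blue bar. The list medians of the wider genes lie between -0.15 and 0.11, and the members' median is 0.18.

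The genes whose values followed the brightest Nsf probe set most closely over the 8 pools were sought among 8004 other named genes, as a description. They were Prkar1b, a regulatory subunit of protein kinase A (Pearson r = 0.975), Serpina11 (0.968), Disp2 (0.963), the nuclear transport gene Ipo13 (0.963) and the xanthine dehydrogenase gene Xdh (0.953). The 8 pools fell into the 2 groups on each of them, so these values hold the group difference as well as the spread within groups. After the group means were taken off, r was 0.967 for Prkar1b, 0.855 for Serpina11, 0.846 for Disp2, 0.841 for Ipo13 and 0.782 for Xdh. In the same measure the other Nsf probe sets, 1369690_at and 1369689_at, had r of 0.186 and 0.259 with 1372528_at and 0.883 with each other. The named genes, Prkar1b to Xdh, were picked as the highest of 8004 over these same pools. Their higher r was largely set by that choice and is no finding about them. Prkar1b measured 287.5, 318.7, 312.9 and 258.3 in normoxic and 347.1, 390.0, 329.6 and 396.1 in hypoxic pools, so that its lowest and highest pools within each group were those of Nsf 1372528_at. With the other Nsf probe sets it shared only the highest hypoxic pool, pool 4.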

How the data were processed

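Pooled adrenal RNA of 4 hypoxic and 4 normoxic samples was made into biotin-labelled cRNA and read on 1-colour arrays, per the labels. The authors deposited linear intensity values, 1 per probe set and array. The sources used here name no summarising software, and per the deposited values each array had been scaled to 1 trimmed mean (500.1), which hides a change shared by most transcripts. Genes were named through GEO's platform annotation, parts of which may be outdated. Values were floored at 1, 16 was added and log2 taken. Array medians lay within 0.117 log2, so no normalization was added. Probe sets with a mean under the 30th percentile were left out. Groups were compared with limma 3.58.1 in R 4.3.3 (lmFit, eBayes with a variance trend, two-sided, Benjamini-Hochberg over 11106 probe sets, threshold 0.05), and the same fit gave standard errors and intervals. The steps were tested on simulated data. Tables and plots used Python 3.11.15, pandas 2.3.3 and matplotlib 3.10.9. The members and lists were chosen with earlier results of these data known. Named from the wider lists were up to 3 genes per list with the lowest p at their brightest probe set, besides any past the threshold. Alternatives changed the offset, filter, trend, normalization, covariates, probe set rule, pools and replicate block.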

Additional observations from a re-analysis of the deposited data

Results flagged for a closer look

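Single pools stood apart from the other 3 of their group in 4 of 76 groups of 4 checked (2 groups for each of 38 probe sets), where chance gives about 1 in 20. For Syt4 on 1375877_at, normoxic pool 2 at 312.8 lay above the other normoxic pools, and without it the log2 difference was 0.26. Normoxic pool 1 lay apart for Vps4b at 1038.2 and for Ykt6 at 184.6, and normoxic pool 4 for Bnip1 at 478.6.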

How the results depend on the processing

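The 20 calls over all probe sets became 0 with no brightness filter, with no variance trend, and with either covariate (chromaffin mean, Gapdh ratio), and ran from 0 to 31 with 1 pool left out (31 for hypoxic pool 1, 2 for hypoxic pool 4, 1 for normoxic pool 4 and 0 for each of the others); the cause was not tested. The count of member probe sets past the threshold was 0, ran from 0 to 1 with 1 pool left out and was 1 with the replicate block (Nsf 1369690_at in both cases). Deviations of same-numbered pools from their group means had correlations of 0.323, 0.00260, 0.186 and -0.0434. With no differently numbered pools beside them, these cannot show whether the replicate numbers pair the pools. The block gave 18 calls in all. The wider genes gave 0 calls in every alternative. The members' median ran from 0.07 to 0.24 and that of the wider genes from -0.04 to 0.03. Of 38 named probe sets 6 turned in sign under some alternative: Cplx1 1398357_at (0.22, and -0.17 with the chromaffin mean), Rab3a, Vamp2, Snap23, Stx4 and Syp. The Nsf differences stayed above 0 in all 16 alternatives, though many of these could not turn the sign. On 1372528_at and 1369690_at the groups did not overlap, so leaving 1 pool out could not do so. The filter, variance trend and replicate block settings left the differences themselves unchanged. Dim probe sets limit what can be said of Stx1a.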
